A study of Mus musculus with 6 samples.

Results

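The genes described here are 31 genes that are commonly used to recognise astrocytes or that astrocytes use in their work in the brain, taken from a list of names drawn up with earlier results of these samples known. Each gene was represented by 1 microarray probe set, the one with the highest mean over all 6 arrays among those annotated to a single gene. All 31 were measured, out of 18193 genes on the array, and together they had 69 probe sets. The samples were hippocampi of adult male mice on a C57B6xCBA background, 3 from the daDREAM transgenic line L26 (homozygous) and 3 from wild type littermates, without a stimulus and with 1 Affymetrix mouse expression array each. daDREAM is a dominant active form of DREAM, a transcriptional repressor whose gene is Kcnip3. L26 is 1 transgenic line, the promoter that drives the transgene and the exact age of the animals are not stated, and the other line named in the labels, L1, was not analysed here.

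Astrocytes clear glutamate and potassium from around synapses, convert glutamate to glutamine, supply neurons with lactate and lipids, and contact blood vessels with endfeet rich in water channels. They are joined to each other by gap junctions and, after injury, become reactive and raise intermediate filament genes such as Gfap. DREAM binds short DNA elements with the core GTCA, and Gfap has been described as a gene to which it binds in neural progenitors.

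Few of these genes differed between the groups, and the differences of the representative probe sets were small. In L26 hippocampus, S100b and the urea transporter gene Slc14a1 fell, the secreted protease gene Htra1 rose, and 28 of the 31 did not pass the test (limma, Benjamini-Hochberg adjusted p under 0.05 over all genes). The widest difference among their 69 probe sets was on a further Gfap probe set, which read 3.02-fold lower in L26. The 3 genes are 9.68% of the list, in which 1 gene stands for 3.23%, while 5.19% of all 18193 genes passed, 2.63% higher and 2.57% lower in L26. After centring each array on its median, those calls over all genes were split into 382 higher and 690 lower instead of 478 and 467, and the 3 astrocyte genes stayed called in the same directions. The values of both groups did not overlap for 9 of the 31 genes (29.0%), 5 of them higher and 4 lower in L26, beside 24.1% of all genes.

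The median difference over the 31 genes was 0.02 on the log2 scale (L26 minus wild type), beside 0.01 over all genes, and it was -0.01 after centring, beside -0.02 over all genes. Every one of the 31 differences had a size under 0.3, and 18 had a size under 0.1. The 95% interval of each gene lay within 0.5 of 0 on the log2 scale. RNA came from the whole hippocampus, so fewer astrocytes and less RNA per astrocyte cannot be told apart. RMA values have no detection calls, so whether a marker is present or absent could not be read from them.

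**Figure D1:**
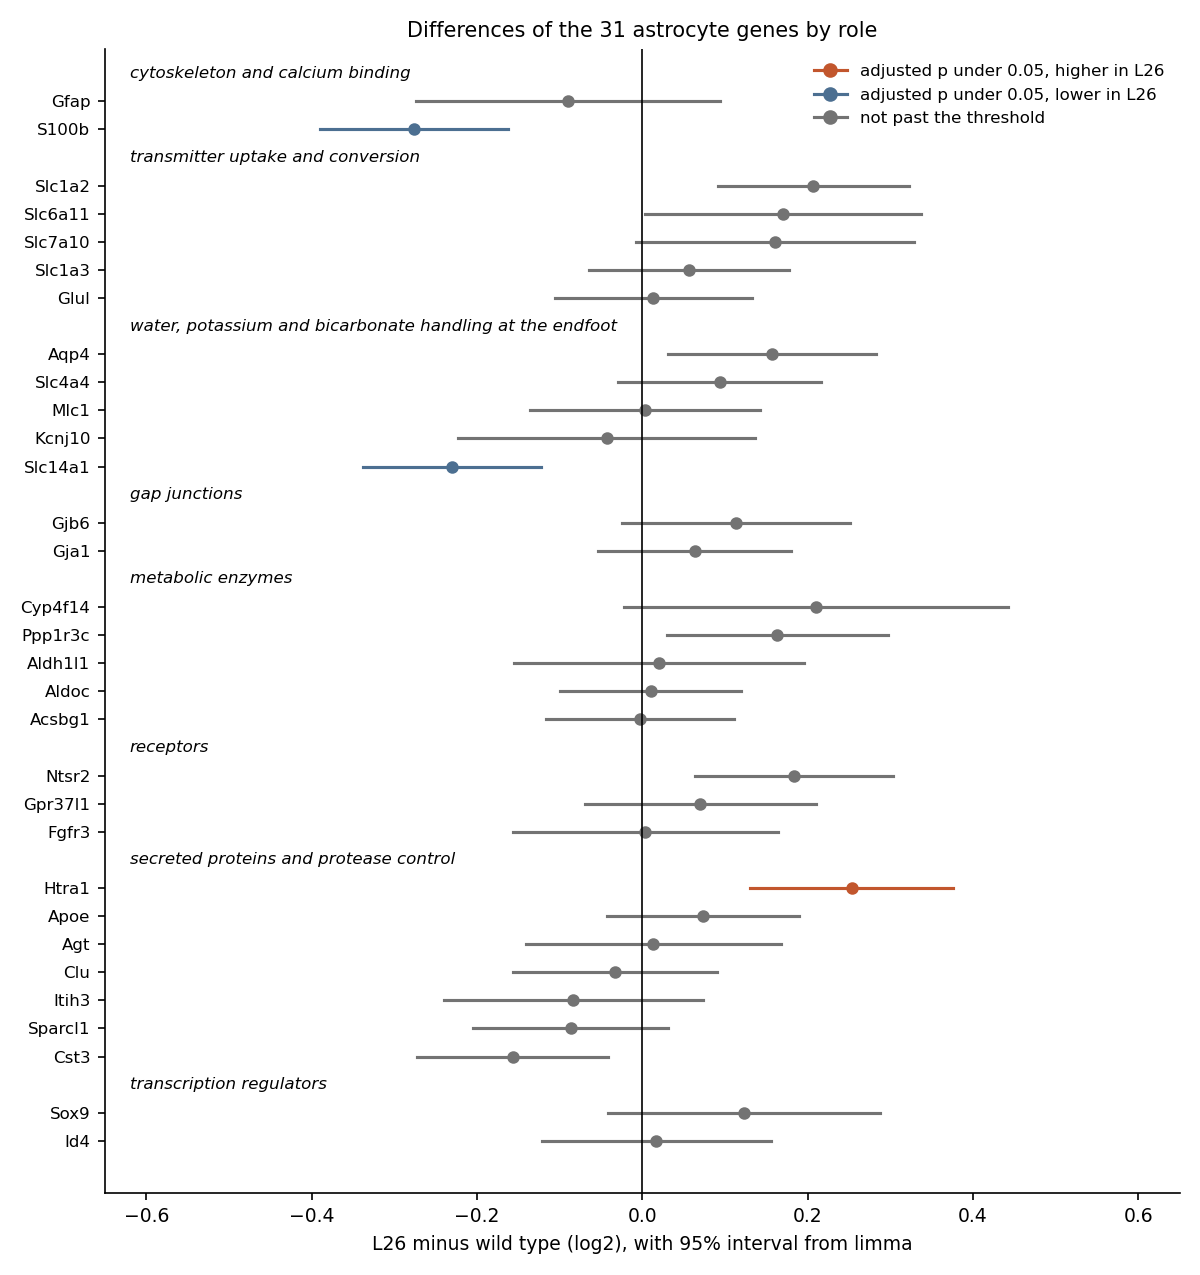
Differences of the 31 astrocyte genes, L26 minus wild type on the log2 scale, ordered by role, with the 95% interval from the limma fit of 3 against 3 arrays. S100b and Slc14a1 lie to the left of 0 and Htra1 to the right among genes past the threshold, and the other 28 points, in grey, did not pass.

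Gfap encodes the intermediate filament protein that is the classic stain for astrocytes. On its representative probe set 1426508_at it measured 9.76, 9.66 and 9.47 in wild type and 9.64, 9.49 and 9.49 in L26, on the log2 scale. The groups overlapped, with a difference of -0.09 (SE 0.08) and an adjusted p of 0.601. On the second probe set, 1426509_s_at, wild type arrays gave 9.54, 9.43 and 9.30 and L26 arrays 9.75, 9.56 and 9.83. All L26 values were the higher ones there, by 0.29 (SE 0.09), which missed the threshold over all probe sets (adjusted p = 0.108). On the last, 1440142_s_at, the wild type arrays gave 8.39, 8.36 and 8.31 and the L26 arrays 6.81, 6.76 and 6.70. This gap of -1.60 (SE 0.06) was many times the spread within either group, and its adjusted p over all 45037 probe sets was 1.76e-06.

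The fall on this last Gfap probe set corresponded to a level 3.02-fold lower in L26 (95% interval 2.77 to 3.31). It had the 8th smallest p of the 45037 probe sets and held its call when any 1 array was left out (adjusted p 1.91e-05 to 4.57e-05). Its value minus that of 1426508_at on the same array was -1.37, -1.30 and -1.16 in wild type and -2.83, -2.73 and -2.79 in L26. The mean of these values was -1.28 in wild type and -2.78 in L26. The differences of the 3 Gfap probe sets spanned 1.89 on the log2 scale. Of 9010 genes with several probe sets, 11, Gfap among them, had a span at least as wide (0.122%), and the median span was 0.13.

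Gfap is known to give splice forms that differ at their 3' ends, and the annotation used here does not say which of them each probe set reads. Probe sets ending in _s_at, which include 1426509_s_at and 1440142_s_at of Gfap, can match several related transcripts. With the mean of the 3 probe sets in place of the representative one, Gfap had a difference of -0.47 and passed (adjusted p = 0.00482), so its call depends on how its probe sets are combined. Which Gfap transcripts differ between the groups was not tested.

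**Figure D2:**
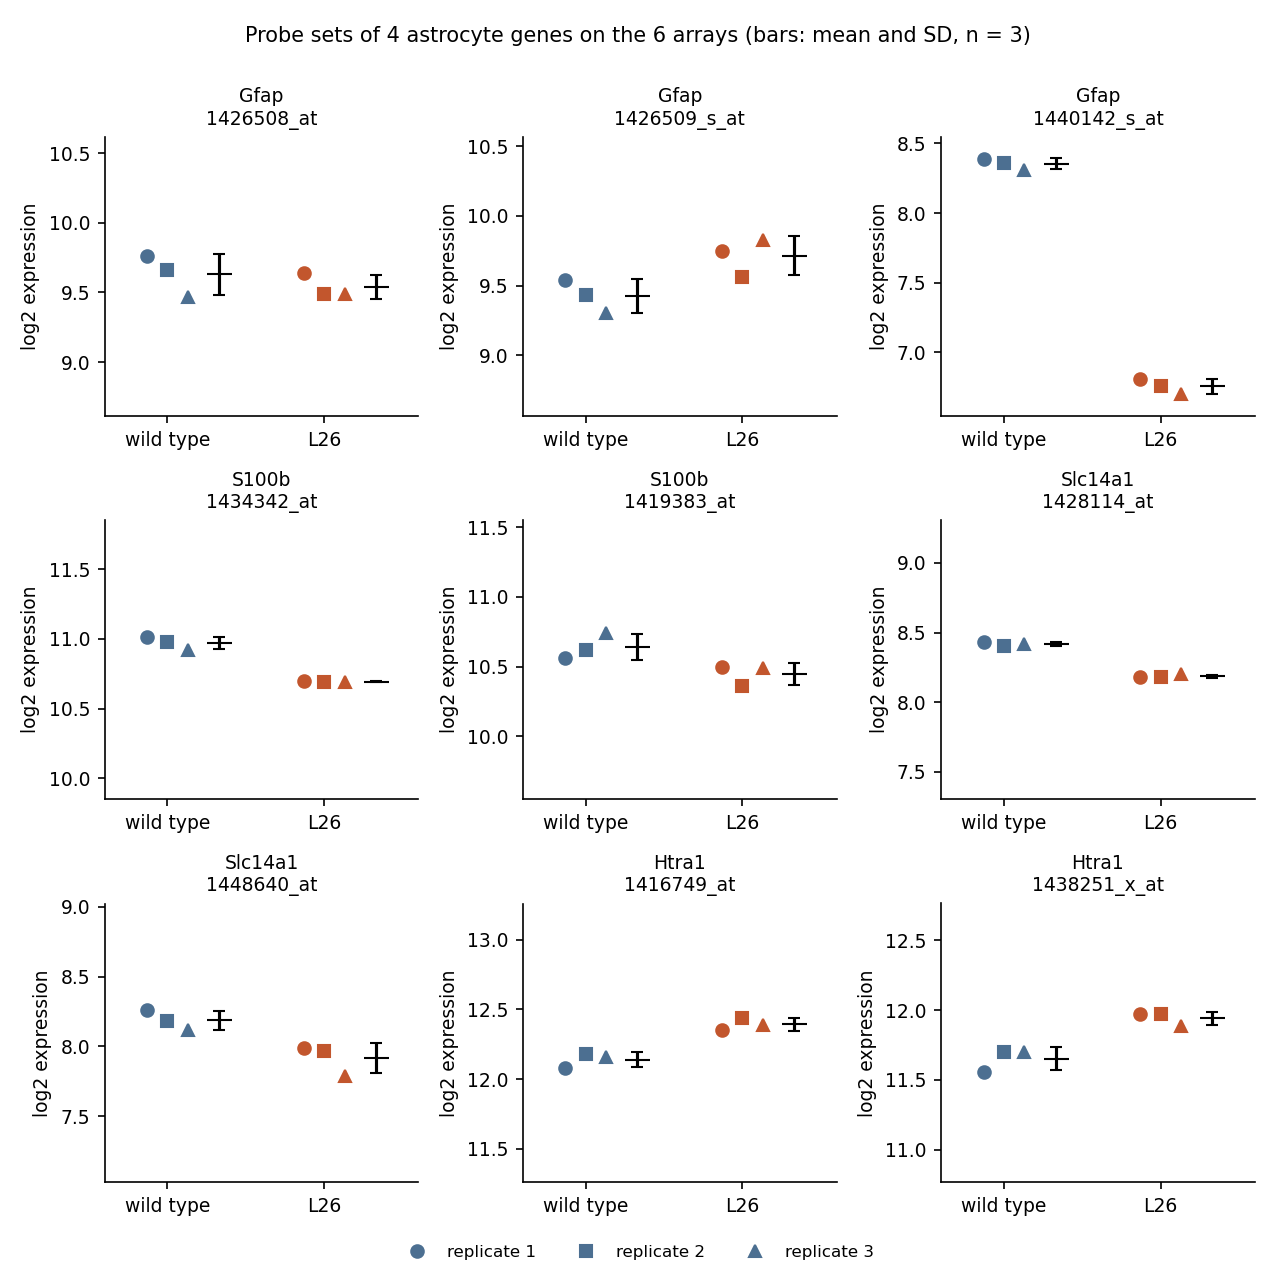
Log2 expression on each of the 6 arrays for every probe set of Gfap, S100b, Slc14a1 and Htra1, with a y axis of equal length in all panels, wild type in blue, L26 in orange, symbols for replicates and bars for the mean and SD (n = 3). The panel of Gfap 1440142_s_at shows L26 values of 6.70 to 6.81 under wild type values of 8.31 to 8.39, while both probe sets of each of the other genes moved the same way.

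S100b encodes a small calcium-binding protein of astrocytes that myelinating oligodendrocytes also make. On 1434342_at it measured 11.01, 10.98 and 10.92 in wild type and 10.70, 10.69 and 10.69 in L26. Every L26 array lay below every wild type array, with means of 10.97 ± 0.05 and 10.69 ± 0.01 (SD, n = 3) and a difference of -0.28 (SE 0.05, limma adjusted p = 0.0163). Its other probe set, 1419383_at, gave 10.56, 10.62 and 10.74 in wild type and 10.50, 10.36 and 10.49 in L26. It differed by -0.19 (SE 0.07) in the same direction and did not pass over all probe sets (adjusted p = 0.178). The call on S100b was lost without wild type replicate 1 (adjusted p = 0.0519), wild type replicate 2 (adjusted p = 0.0571), L26 replicate 2 (adjusted p = 0.0675) or L26 replicate 3 (adjusted p = 0.0645).

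On the same arrays, 11 of 15 oligodendrocyte markers rose and 0 fell, beside 5.19% of all genes called. They included Mal (0.66, SE 0.09), Cnp (0.41, SE 0.07), Mobp (0.41, SE 0.08), Olig2 (0.33, SE 0.05), Sox10 (0.32, SE 0.06) and Olig1 (0.31, SE 0.06). Their summed signal on the linear scale was 58676 to 62504 on wild type arrays and 69650 to 79857 on L26 arrays. S100b moved the opposite way to these markers, and their part in its value was not tested. These markers measured at least 6.79 on the log2 scale on every array, beside a lowest value of 4.28 over all genes.

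The upstream sequences of Gfap, S100b and Htra1 are printed because Gfap has been described as bound by DREAM and the other pair passed the test. They are the 250 bases before the start in RefSeq (build GRCm38.p6), 5' to 3' on the strand of the gene, with each GTCA core, read on either strand (GTCA or TGAC), in capitals. Gfap lies at chr11:102897201-102897450 on the minus strand, S100b at chr10:76253586-76253835 on the plus strand and Htra1 at chr7:130935953-130936202 on the plus strand.
Gfap: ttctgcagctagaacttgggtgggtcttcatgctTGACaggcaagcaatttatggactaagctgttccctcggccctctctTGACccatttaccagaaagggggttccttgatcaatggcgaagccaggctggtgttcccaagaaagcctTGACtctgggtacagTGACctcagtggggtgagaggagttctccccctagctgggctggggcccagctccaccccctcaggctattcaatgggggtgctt
S100b: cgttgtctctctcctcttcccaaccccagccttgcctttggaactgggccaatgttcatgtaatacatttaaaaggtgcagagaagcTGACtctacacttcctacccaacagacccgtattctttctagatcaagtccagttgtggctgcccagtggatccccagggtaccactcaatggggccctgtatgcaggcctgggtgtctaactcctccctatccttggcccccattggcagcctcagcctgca
Htra1: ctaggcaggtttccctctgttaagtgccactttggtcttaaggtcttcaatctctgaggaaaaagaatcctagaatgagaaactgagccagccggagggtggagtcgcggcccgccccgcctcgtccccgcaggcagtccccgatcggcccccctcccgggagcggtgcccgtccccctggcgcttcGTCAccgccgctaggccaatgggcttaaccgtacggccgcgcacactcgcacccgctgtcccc

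The Gfap window held 4 such cores, all of them on the strand opposite to the gene, and those of S100b and Htra1 held 1 each. The core is short and common: 80.3% of 27025 genes with a RefSeq promoter, 1 start per gene, had at least 1 in the same 250 bases, with a median of 2. Of the 31 astrocyte genes 26 were matched and 21 of them (80.8%) had a core, with a median of 1. Gja1 had 5, the highest count among the 26, Slc1a2, Slc6a11 and Ppp1r3c had 3 each, and Aldoc, Slc4a4, Mlc1, Acsbg1 and Kcnj10 had 0. The core is part of the cAMP response element TGACGTCA, which 0 of the 26 and 1.62% of all promoters held, and of the AP-1 site TGACTCA, which 1 of the 26 (Gja1) and 4.43% of all promoters held. These are matches of letters in a window, not sites shown to be bound. Aqp4, Sox9, Clu, Sparcl1 and Slc14a1 were not matched.

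Genes of transmitter uptake and conversion did not pass, and the 5 differences ran from 0.01 to 0.21. After centring each array on its median, Glul turned to -0.02 and the other 4 stayed above 0, at 0.03 to 0.18. Slc1a2, which encodes the main glutamate transporter of the forebrain, measured 13.75, 13.76 and 13.70 in wild type and 13.95, 13.98 and 13.90 in L26. The groups did not overlap, and the difference of 0.21 (SE 0.05) fell just short of the threshold (adjusted p = 0.0536, limma). Of its 4 other probe sets 3 differed by 0.12 to 0.26 and 1439940_at by -0.14, and none passed over all probe sets. Slc1a3, the gene of the second astrocyte glutamate transporter, measured 11.76, 11.69 and 11.78 in wild type and 11.76, 11.85 and 11.79 in L26, a difference of 0.06 (SE 0.05, adjusted p = 0.62). Its 5 other probe sets ranged from -0.18 to 0.23, so they did not share a direction.

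Glul, which encodes glutamine synthetase, differed by 0.01 (SE 0.05), with overlapping groups on both of its probe sets. Slc6a11, a GABA transporter gene, differed by 0.17 (SE 0.07, adjusted p = 0.236) and Slc7a10, the gene of a serine and alanine exchanger, by 0.16 (SE 0.07, adjusted p = 0.27). Both had overlapping groups. Of 14 further genes measured for the handling of glutamate, glutamine and GABA, 0 passed limma's test in either direction, 5 had an unadjusted p under 0.05 (beside 20.3% of all genes), and 4 had groups that did not overlap, 2 in each direction. The closest was Gldc, which encodes the glycine cleavage decarboxylase, at 0.20 (SE 0.05, adjusted p = 0.0558), and 0 to 1 of the 14 rose when an array was left out. Slc38a1, a glutamine transporter gene, gave -0.10 on its representative probe set and 0.31 (SE 0.06, adjusted p = 0.0278 over all probe sets) on its other one.

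Among the genes of water, potassium and bicarbonate handling, Slc14a1 fell and Slc4a4 gave unlike probe sets. Slc14a1 encodes urea transporter B, which passes urea and water. It measured 8.43, 8.40 and 8.42 in wild type and 8.18, 8.18 and 8.20 in L26, so that the groups stood apart with very little spread in either. The difference was -0.23 (SE 0.05, limma adjusted p = 0.0281), and its other probe set, 1448640_at, differed by -0.27 (SE 0.07, adjusted p = 0.0754 over all probe sets). The call on Slc14a1 was lost when any of the 6 arrays was left out (adjusted p 0.0683 to 0.101), while the difference stayed between -0.24 and -0.22.

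Slc4a4 encodes an electrogenic sodium bicarbonate cotransporter. Its representative probe set 1434096_at measured 11.22, 11.15 and 11.20 in wild type and 11.22, 11.29 and 11.34 in L26 (0.09, SE 0.05, adjusted p = 0.383). Another of its 5 probe sets, 1421225_a_at, measured 7.36, 7.41 and 7.30 in wild type and 7.03, 7.18 and 6.95 in L26. All L26 values were lower there, by 0.30 (SE 0.07), which passed narrowly over all probe sets (adjusted p = 0.0493) and, with 1 array left out, passed in 1 of 6 fits (adjusted p 0.0373 to 0.174). The other Slc4a4 probe sets differed by -0.16 to 0.11 and did not pass.

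Aqp4, the gene of the endfoot water channel, measured 11.54, 11.41 and 11.45 in wild type and 11.64, 11.65 and 11.58 in L26. The L26 arrays were all higher, by 0.16 (SE 0.06), without passing (adjusted p = 0.153), and its other probe sets differed by 0.20 and 0.25. Kcnj10, which encodes the inward rectifier Kir4.1 through which astrocytes take up potassium, differed by -0.04 (SE 0.08), with L26 values from 10.41 to 10.74 around wild type values from 10.62 to 10.63. Mlc1, the gene of a membrane protein of astrocyte junctions, had means of 10.60 and 10.61. Of 15 further genes measured for potassium, water, pH and endfoot anchoring, 1 rose and 0 fell, beside 5.19% of all genes called. The gene that rose was Slc12a2, the sodium, potassium and chloride cotransporter gene (0.29, SE 0.07, limma adjusted p = 0.0493). That call was lost whichever array was left out (adjusted p 0.0698 to 0.142) and after centring (adjusted p = 0.056), and its other probe sets differed by 0.13 and 0.06.

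The gap junction genes did not pass. Gja1, which encodes the main connexin of astrocytes, differed by 0.06 (SE 0.05), and its 5 other probe sets ranged from -0.09 to 0.11, all with overlapping groups. Gjb6, the gene of a further astrocyte connexin, differed by 0.11 (SE 0.06, adjusted p = 0.342).

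Gfap stood out among the genes with several probe sets. Of the 18 genes with several probe sets, 4 had a span over 0.4 (Gfap, Slc1a3, Slc4a4 and Slc1a2), and 13 genes had a single probe set. Of the 69 probe sets 6 passed over all probe sets (8.70%, beside 3.92% of all 45037), namely 1 each of Gfap, S100b, Slc4a4 and Slc14a1, all lower in L26, and both of Htra1, higher in L26. The sign of the representative probe set was shared by 25 of the 38 others.

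**Figure D3:**
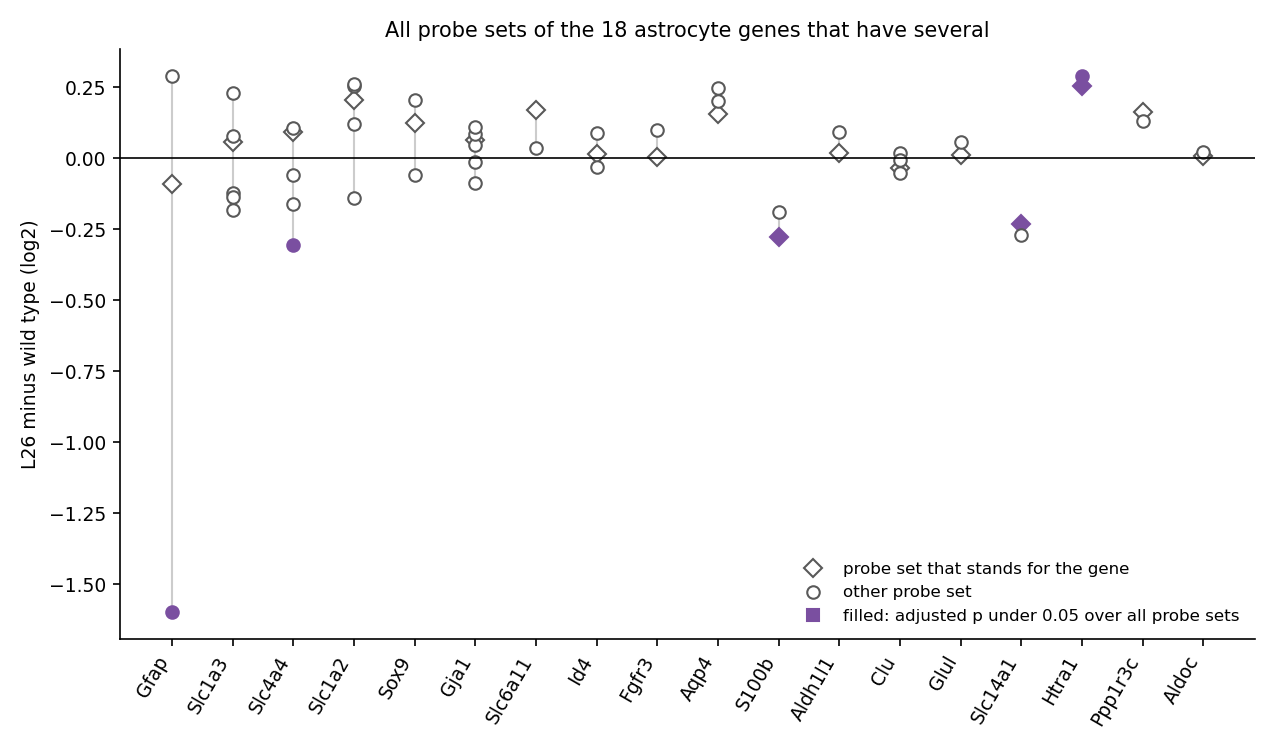
L26 minus wild type on the log2 scale for every probe set of the 18 astrocyte genes with several, diamonds for the probe set that stands for the gene, filled symbols for adjusted p under 0.05 over all probe sets, genes ordered by span. Gfap runs from -1.60 to 0.29, while the spans of the other 17 genes are 0.41 or less.

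The metabolic genes did not pass. Aldh1l1, a folate enzyme gene widely used to label astrocytes, measured 9.60, 9.77 and 9.50 in wild type and 9.57, 9.63 and 9.73 in L26, with a difference of 0.02 (SE 0.08) and overlapping groups. Aldoc, which encodes the glycolytic enzyme aldolase C, had means of 14.08 and 14.09, and Acsbg1, an acyl-CoA synthetase gene, had 9.99 in both groups. Ppp1r3c, whose product brings protein phosphatase 1 to glycogen, gave L26 values of 11.45 to 11.63, all above the wild type values of 11.35 to 11.39 (0.16, SE 0.06, adjusted p = 0.161). Cyp4f14, a fatty acid hydroxylase gene, differed by 0.21 (SE 0.10, adjusted p = 0.295), with L26 replicate 1 at 7.59 and the other arrays between 7.02 and 7.31.

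Of 20 further genes of glycogen, lactate and fatty acid metabolism, 1 rose and 1 fell, beside 5.19% of all genes called. The other 18 did not pass. Fabp7, the brain fatty acid binding protein gene of astrocytes and neural progenitors, measured 10.84, 10.68 and 10.71 in wild type and 11.52, 11.81 and 11.64 in L26 (0.91, SE 0.08, adjusted p = 0.000497). Ppp1r3g, which like Ppp1r3c encodes a glycogen-targeting subunit of protein phosphatase 1, measured 7.96, 8.02 and 8.17 in wild type and 7.52, 7.42 and 7.37 in L26 (-0.61, SE 0.07, adjusted p = 0.00211). Both calls held with any 1 array left out. Slc27a1, a fatty acid transport gene counted as not passed, gave -0.08 on its representative probe set and 0.37 (SE 0.08, adjusted p = 0.0408 over all probe sets) on its other one. Fabp7 and Ppp1r3g stood apart by more than any of the 31 did on its representative probe set.

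Among the receptors, Ntsr2, which encodes a neurotensin receptor of astrocytes, measured 11.92, 11.99 and 12.02 in wild type and 12.12, 12.19 and 12.17 in L26. The groups did not overlap, and the difference of 0.18 (SE 0.05) missed the threshold (adjusted p = 0.0863). Fgfr3, a fibroblast growth factor receptor gene, had 10.91 and 10.92, and Gpr37l1, the gene of an orphan receptor of astrocytes, differed by 0.07 (SE 0.06). Of 16 further receptor genes measured 2 rose and 0 fell, beside 5.19% of all genes called. Fgfr1 rose by 0.28 (SE 0.05, limma adjusted p = 0.015) and the bone morphogenetic protein receptor gene Bmpr1b by 0.42 (SE 0.08, limma adjusted p = 0.0267). Other probe sets gave 0.39 and 0.17 for Fgfr1 and 0.01 and 0.10 for Bmpr1b. The Fgfr1 call was lost without wild type replicate 3, L26 replicate 2 or L26 replicate 3 (adjusted p up to 0.0653), and that of Bmpr1b in every such fit except the one without L26 replicate 3 (adjusted p up to 0.0906).

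Among the secreted proteins Htra1 rose. It encodes a serine protease that cleaves matrix proteins, and cells of blood vessels make it too. On 1416749_at it measured 12.08, 12.18 and 12.16 in wild type and 12.35, 12.44 and 12.39 in L26, and on 1438251_x_at 11.56, 11.70 and 11.70 against 11.97, 11.97 and 11.89. Every L26 value lay above every wild type value on both probe sets, with differences of 0.25 (SE 0.05, limma adjusted p = 0.0319 over genes) and 0.29 (SE 0.06, limma adjusted p = 0.0347 over all probe sets). The first corresponds to a level 1.19-fold higher (95% interval 1.09 to 1.30). The call on Htra1 was lost when any of the 6 arrays was left out (adjusted p 0.0527 to 0.118), with differences between 0.22 and 0.275. On the same arrays 8 of 15 endothelial and mural markers rose and 0 fell, beside 5.19% of all genes called. These markers measured at least 6.57 on the log2 scale on every array, beside a lowest value of 4.28 over all genes. They included Cldn5 (0.95, SE 0.08), Pdgfrb (0.68, SE 0.08), Kdr (0.63, SE 0.07), Rgs5 (0.62, SE 0.06), Abcc9 (0.58, SE 0.09) and Flt1 (0.43, SE 0.05). Their summed linear signal was 10978 to 11053 on wild type arrays and 13592 to 14486 on L26 arrays. Their part in the value of Htra1 was not tested.

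Cst3, which encodes the protease inhibitor cystatin C, measured 13.99, 13.99 and 14.01 in wild type and 13.79, 13.84 and 13.89 in L26. The L26 values were all lower, by 0.16 (SE 0.05), without passing (adjusted p = 0.121). Sparcl1, the gene of hevin, a secreted synaptogenic protein, also had L26 values that were all lower (-0.09, SE 0.05, adjusted p = 0.4). The lipid carrier genes Apoe and Clu differed by 0.07 (SE 0.05) and -0.03 (SE 0.05), with overlapping groups. Agt, the angiotensinogen gene, differed by 0.01 (SE 0.07) and Itih3, which encodes a hyaluronan-binding heavy chain, by -0.08 (SE 0.07).

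Of 14 further genes of apolipoprotein E lipidation, uptake and sterol control, 2 rose and 0 fell, beside 5.19% of all genes called. Lpl, which encodes lipoprotein lipase, measured 11.57, 11.58 and 11.66 in wild type and 12.34, 12.33 and 12.30 in L26, a rise of 0.72 (SE 0.05, adjusted p = 0.000176) with 0.73 on its other probe set. Lcat, whose product esterifies cholesterol on lipoproteins, rose by 0.38 (SE 0.07, adjusted p = 0.0149). The Lcat call was lost without L26 replicate 2 or L26 replicate 3 (adjusted p up to 0.0664), and that of Lpl held with any 1 array left out.

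The transcription regulators did not pass. Sox9, a glial lineage factor gene, gave 8.34, 8.31 and 8.36 in wild type and 8.61, 8.33 and 8.44 in L26 (0.12, SE 0.07, adjusted p = 0.39), and its other probe sets differed by 0.21 and -0.06. Id4, an inhibitor of helix-loop-helix factors, differed by 0.02 (SE 0.06). Of 23 further lineage factor genes, by their representative probe sets, 3 rose, 0 fell and 20 did not pass, beside 5.19% of all genes called. Their median difference was 0.08, with 17 means higher and 6 lower in L26. Groups did not overlap for 10 genes higher and 2 lower, beside 24.1% of all genes in either direction. Among the 20 that did not pass, Nfia, a gene that promotes glial fate, gave 0.08 on its representative probe set but -0.95 on another. On that probe set it went from 8.46 to 7.51 (SE 0.08, adjusted p = 0.000286 over all probe sets). The other Nfia probe sets gave -0.28, -0.24, -0.06 and 0.07. Zbtb20, a hippocampal and astrocyte factor gene, gave 0.22 on its representative probe set and 0.14 to 0.46 on its 8 others, of which 2 passed over all probe sets (0.40 and 0.46). Id1 and Id3, relatives of Id4, rose by 0.49 (SE 0.11, adjusted p = 0.0416) and 0.43 (SE 0.07, adjusted p = 0.0109), and Emx2 by 0.30 (SE 0.06, adjusted p = 0.0169). Id1 and Id3 are also made by endothelium, whose markers lay higher on the L26 arrays as given above, and the part of those cells in these values was not tested. Id1 stayed called in 2, Id3 in 4 and Emx2 in 1 of the 6 fits that left out an array. Leaving out L26 replicate 2 or L26 replicate 3 ended all 3 calls. Over the 6 fits the highest adjusted p (limma) was 0.142 for Id1, 0.0558 for Id3 and 0.0675 for Emx2.

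Most reactive astrocyte genes had higher means in L26, 23 of 32 measured, and 9 had lower ones, beside 9669 and 8524 of all genes. Of the 32, 6 rose, 1 fell and 25 did not pass, beside 5.19% of all genes called. The median difference was 0.08, beside 0.01 over all genes. Groups did not overlap for 13 genes higher and 2 lower in L26, beside 24.1% of all genes in either direction. An unadjusted p under 0.05 (limma) was found for 15 of the 32, beside 20.3% of all genes. Cd44, the hyaluronan receptor gene, fell from 7.99, 8.15 and 8.08 to 6.45, 6.66 and 6.55 (-1.52, SE 0.07, adjusted p = 2.14e-05), with -0.80, -0.32 and 0.13 on its other probe sets. Those that rose were S1pr3, a sphingosine phosphate receptor gene (0.45, SE 0.06), the matrix gene Tnc (0.42, SE 0.07), Serpina3n, a protease inhibitor gene (0.35, SE 0.07), S100a6 (0.30, SE 0.06), the surface protein gene Cd109 (0.27, SE 0.06) and the filament gene Nes (0.26, SE 0.05). Vim, the other intermediate filament gene of reactive astrocytes, had 0.22 (SE 0.07, adjusted p = 0.107), with all L26 values above all wild type values. Other probe sets gave 0.35 and 0.14 for S1pr3, 0.11 for Tnc, -0.07 for Cd109, and 0.08 and 0.02 for Nes. The call on Cd109 was lost after centring (adjusted p = 0.0624). With 1 array left out, S1pr3 passed in 6 of 6 fits, Tnc in 3, Serpina3n and Nes in 2, and S100a6 and Cd109 in 1. H2-D1, a class I histocompatibility gene whose probe sets can match related genes, did not pass at 0.38, while its 8 other probe sets ran from -0.51 to 0.33 and 2 of them passed over all probe sets (0.33 and 0.27). The count of those that rose was 1 to 7 when 1 array was left out. Several of these genes are also made by vascular cells, whose markers lay higher on the same arrays, and their part was not tested.

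A wider list of 50 genes enriched in astrocytes had a median difference of 0.055. On their representative probe sets 3 rose, 1 fell and 46 did not pass, beside 5.19% of all genes called. Another probe set of 4 of these 46 passed over all probe sets. Plpp3, a lipid phosphatase gene, gave 0.04 and -0.34 (SE 0.05, adjusted p = 0.0087), Sdc4, a proteoglycan gene, -0.02 and 0.42 (SE 0.09, adjusted p = 0.0314), Cbs, an enzyme gene of sulphur metabolism, 0.09 and 0.34 (SE 0.06, adjusted p = 0.0136), and Tril 0.09 and 0.23 (SE 0.05, adjusted p = 0.0418). Timp4, a metalloproteinase inhibitor gene, rose by 0.39 (SE 0.06, adjusted p = 0.0111), Thbs4, a thrombospondin gene, by 0.35 (SE 0.08, adjusted p = 0.044) and Fam107a, an actin regulator gene, by 0.32 (SE 0.06, adjusted p = 0.0221). Etnppl, which encodes an enzyme that breaks down phosphoethanolamine, fell from 8.67, 9.04 and 8.96 to 8.44, 8.20 and 8.19 (-0.61, SE 0.10, adjusted p = 0.0125), and by 0.73 on its other probe set. The number that rose was 0 to 4 and the number that fell 0 to 1 when 1 array was left out. Without L26 replicate 2 all 4 calls were lost, and Timp4 kept its call when any other array was left out.

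**Figure D4:**
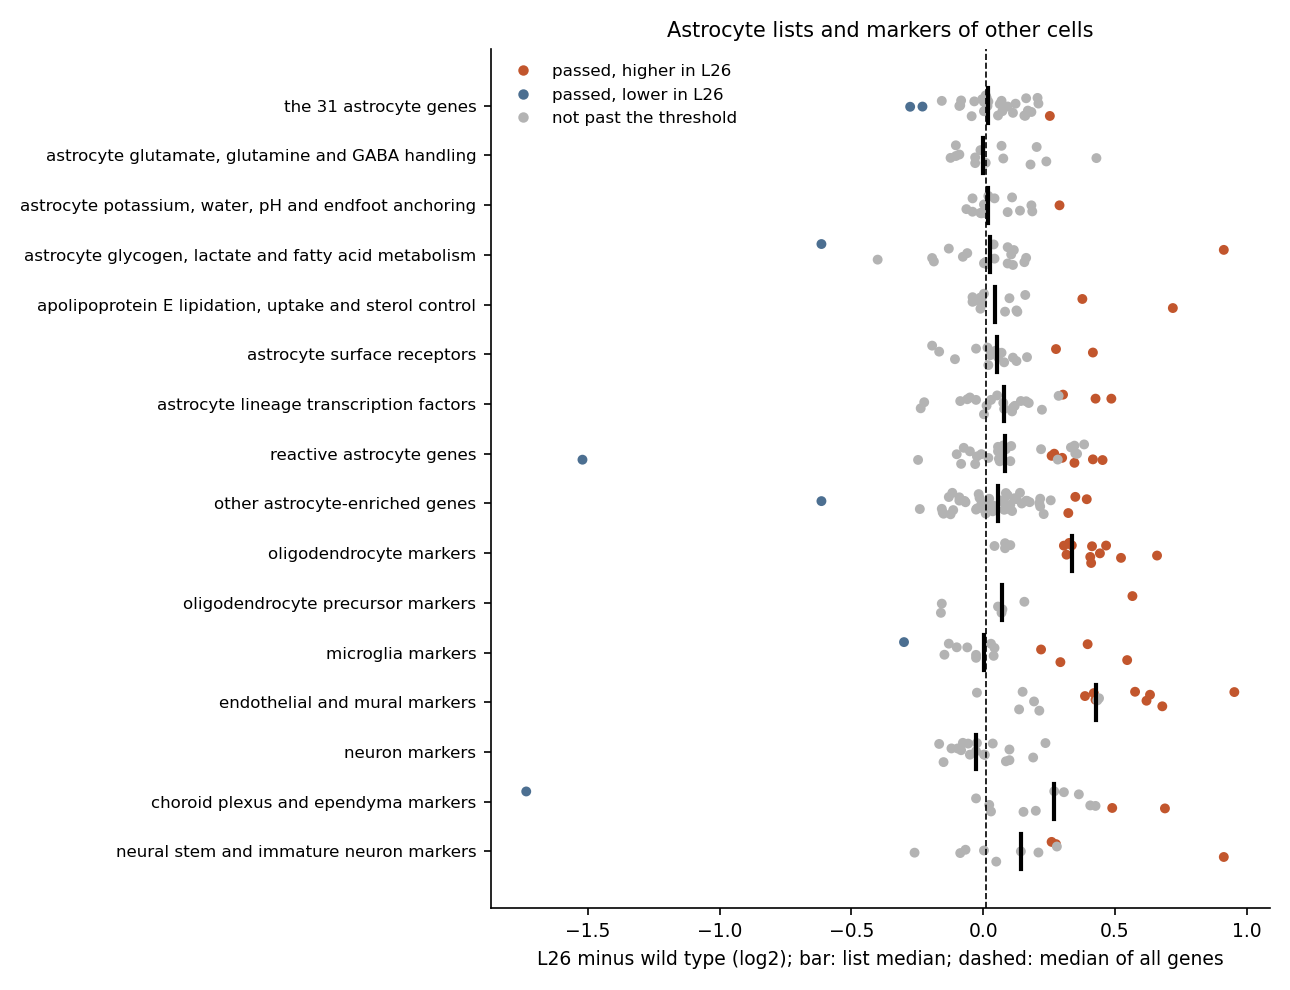
L26 minus wild type on the log2 scale for each gene of the astrocyte lists and of the markers of other cells, 1 point per gene, orange and blue for genes past the threshold (higher and lower in L26), a bar for the list median and a dashed line for the median of all genes (0.01). The 31 astrocyte genes lie between -0.28 and 0.25 around a median of 0.02, while the medians of oligodendrocyte and of endothelial and mural markers are 0.34 and 0.43.

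Markers of other cells of the hippocampus differed to unlike degrees on these arrays, where 5.19% of all genes were called. The median difference was 0.34 for 15 oligodendrocyte markers and 0.43 for 15 endothelial and mural markers. It was -0.025 for 18 neuron markers, of which 0 passed limma's test on the representative probe set and 5 had an unadjusted p under 0.05, beside the 20.3% of all genes, and 0.002 for 14 microglia markers, of which 4 rose (Fcrls, C1qc, C1qb and Csf1r) and 1 fell (P2ry12). Of the 22 other probe sets of the neuron markers 3 passed over all probe sets, Camk2a with 0.90 (SE 0.06) and 0.33 (SE 0.05) and Map2 with -0.43 (SE 0.08), beside 0.10 and 0.04 on the representative ones. With 1 array left out, 1 to 11 of the oligodendrocyte and 5 to 8 of the endothelial and mural markers rose, 1 to 2 of the microglia markers rose and 0 to 1 fell, and 0 of the neuron markers passed on the representative probe set. None of these markers is among the 31 astrocyte genes, and whether the lists differ from each other was not tested.

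The arrays differed little in how the 31 genes stood. Set against each gene's wild type mean, the median deviation of the 31 was 0.003, 0.02 and -0.01 on the wild type arrays and 0.02, 0.06 and 0.04 on the L26 arrays, while the array medians over all probe sets were 7.27 to 7.29 and 7.30 to 7.32. The median SD within a group was 0.05 in wild type and 0.06 in L26 for these genes, beside 0.07 in both groups for all genes. Correlations over all probe sets were 0.9971 to 0.9979 within and 0.9944 to 0.9958 between groups, and 0 arrays were copies of each other.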

How the data were processed

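The authors deposited log2 expression, 1 value per probe set and array with 2 decimals, and the submitters' processing notes name RMA and affy without a version. RMA removes background and equalises the arrays, and can understate differences of dim transcripts. Of 45101 probe sets 64 controls were left out, and no filter on level was applied. Platform annotation gave 34945 of the other 45037 a single symbol, which named 18193 genes.

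The comparison of L26 with wild type used limma 3.58.1 under R 4.3.3 (a linear model with eBayes, two-sided). It was fitted on 1 probe set per gene and, for further probe sets, on all 45037, with Benjamini-Hochberg adjustment over each table and a threshold of 0.05. SDs are over 3 arrays, and SEs and 95% intervals come from limma. The number of arrays limits the precision. The series text calls the replicates independent biological ones. The code was tested on simulated data.

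The 31 genes and all lists were chosen with earlier results of these data known, so no list was tested as a whole. All 31 genes are named. Values on every array are given for those with a probe set past the threshold, the 4 next by p and 5 defining markers, and of other lists the genes past the threshold are named, up to 6 with the smallest p. Gldc, Vim and the genes of these lists that passed only on another probe set (such as Nfia and Sox11) were added after their values were seen. Alternatives were a replicate block, each array left out, a repeated quantile normalization, median centring, removal of the dimmest 40% of probe sets, a trend with a robust prior, removal of _x_at and _s_at probe sets, the mean of a gene's probe sets, adjustment over all probe sets and a threshold of 0.1. After seeing the data, most of these were also run on the single probe sets that passed. Upstream sequences are from RefSeq.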

Additional observations from a re-analysis of the deposited data

How the results depend on the processing

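The count of astrocyte genes past the threshold, 1 higher and 2 lower, rested on small differences. With the replicate block it was 0 higher and 1 lower (S100b), with limma adjusted p of 0.058 for Htra1 and 0.0735 for Slc14a1. No pairing of same-numbered arrays is stated. Their deviations correlated at -0.04, -0.07 and 0.15, and not every array correlated best with its own number. With 3 arrays per group, these values cannot tell whether same-numbered arrays have more than a number in common. With 1 array left out, which leaves fewer degrees of freedom, the count was 0 higher and 0 to 1 lower. There were 2 higher without the dimmest 40% of probe sets (with Slc1a2, adjusted p = 0.0367) and 3 higher with the trend and robust prior or at a threshold of 0.1 (with Slc1a2 and Ntsr2), the trend and robust prior also calling Cst3 lower (adjusted p = 0.0138). Over all genes the counts were 478 higher and 467 lower. They were 180 to 358 higher and 221 to 376 lower with 1 array left out, and 918 higher and 816 lower at the threshold of 0.1. With the replicate block 301 were higher, and with the trend and robust prior 701 were lower. The opposite direction of those fits is not given here, so they do not show a shift in 1 direction only. The cause of these shifts was not tested.

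The median difference of the 31 genes stayed between -0.01 and 0.06. No called gene changed sign in any of these fits. Among the values of single genes under these alternatives, 440 kept the side of the threshold or had no call on either side, 7 gained a call and 18 lost one. The Gfap probe set 1440142_s_at differed by -1.63 to -1.57 and passed in all 11 fits. Under median centring the Htra1 probe sets had adjusted p of 0.0623 and 0.0503 over all probe sets. Small differences of probe sets near the lower end of the scale could be missed, since RMA compresses them.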

Other observations

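Neural stem cell and immature neuron markers, some of which astrocyte-like progenitors of the dentate gyrus share, had a median difference of 0.14 over 11 measured genes. By representative probe set 3 rose (Fabp7, Nes and Igfbpl1), 0 fell and 8 did not pass, beside 5.19% of all genes called. Sox11, a gene of immature neurons among those 8, gave 0.28 on that probe set but -2.23 on another, where it went from 9.53 to 7.30 (SE 0.15, adjusted p = 9.41e-05 over all probe sets), and -0.29 to 0.46 on the other 4. Igfbpl1, also of immature neurons, rose by 0.28 (SE 0.06, limma adjusted p = 0.044), a call that was lost whichever array was left out (adjusted p 0.0505 to 0.142). Fabp7 and Nes are the same calls already counted in the fatty acid and reactive astrocyte lists, so only the Igfbpl1 call was new here. Of 7 oligodendrocyte precursor markers, Gpr17, a receptor gene of cells about to myelinate, rose by 0.57 (SE 0.12, limma adjusted p = 0.0295) and 6 did not pass. The Gpr17 call was lost without wild type replicate 1, wild type replicate 2, L26 replicate 2 or L26 replicate 3 (adjusted p up to 0.0861).

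Choroid plexus and ependyma markers were measured for 13 genes. The cilia-related genes Tmem212 and Ccdc153 rose by 0.69 (SE 0.11) and 0.49 (SE 0.08). Kcne2, a potassium channel subunit gene, fell by 1.73 (SE 0.16), and 10 did not pass, beside 5.19% of all genes called. On its only probe set Kcne2 measured 6.74, 7.28 and 7.47 in wild type and 5.51, 5.39 and 5.39 in L26. Its L26 values lay toward the lower end of the scale, where the lowest value over all genes was 4.28. The median difference of the 13 was 0.27, with 11 means higher and 2 lower in L26, beside 9669 higher and 8524 lower over all genes. Folr1 measured 8.78, 9.80 and 9.88 in wild type and 9.80, 9.21 and 10.37 in L26. Within their groups, Otx2, Kl, Clic6 and Aqp1 were also lowest on wild type replicate 1 and L26 replicate 2. The median thus rests partly on genes that varied widely between arrays of a group. Groups overlapped for 9 of the 13 markers. The summed linear signal of the 13 also overlapped, at 33248 to 37325 on wild type arrays and 33175 to 40667 on L26 arrays. Most of that sum came from Ttr, which measured 14.83 to 15.02 on the log2 scale, so it says little about the other markers. Without L26 replicate 3 the calls on Tmem212 (adjusted p = 0.052) and Ccdc153 (adjusted p = 0.0535) were lost.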
